A study of Homo sapiens with 4 samples.

Results

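Polyamines are small positively charged molecules that growing cells keep within narrow limits, and the genes described here make them, oxidize them or control their level. The list holds 10 genes, chosen by name from the known pathway, with earlier results of these data known: AMD1, ODC1, AZIN1, OAZ1, OAZ2, SRM, SMS, SAT1, PAOX and SMOX. Of these, 6 were listed in each of the 4 deposited tables (AMD1, AZIN1, OAZ1, SRM, SMS and SMOX), out of 9271 transcripts listed in any table and 8568 listed in every table. ODC1, OAZ2, SAT1 and PAOX were listed in none of the 4 tables, for a reason that is not recorded, and were not analysed here. The libraries are ribosome profiling libraries, which sequence the mRNA fragments protected by ribosomes (ribosome-protected fragments, RPFs), from HEK293T, an established cell line of human embryonic kidney origin carrying the SV40 large T antigen. Untreated cells (0 µg/mL, replicates A and B) were compared with cells given 500 µg/mL G418 for 24 hr (replicates A and B). G418, an aminoglycoside, acts at the site where the ribosome reads codons, and the study asked how such drugs change the passage of ribosomes through stop codons. Both groups are the same cell line, and all cells were lysed with cycloheximide.

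In the pathway, AMD1 makes decarboxylated S-adenosylmethionine, the aminopropyl donor. SRM (spermidine synthase) and SMS (spermine synthase) pass that group to putrescine and spermidine, and SMOX oxidizes spermine back to spermidine. OAZ1 (antizyme) binds ornithine decarboxylase and sends it to the proteasome, and AZIN1 (antizyme inhibitor) is an inactive relative of that enzyme that titrates antizyme away. Translation of several of these mRNAs answers to polyamines: AMD1 carries a short upstream open reading frame (uORF) at which ribosomes stall when polyamines are high, AZIN1 has a regulatory uORF in its leader, and full-length OAZ1 needs a ribosomal frameshift that polyamines stimulate.

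The sequences that the results refer back to come from GENCODE version 44 on hg38, whose region lengths and stop codons equalled the deposited ones for all 6 transcripts after the authors' trimming. AMD1 (chr6:110874785-110895713, plus strand) has a 321 nt 5′UTR, and its single upstream AUG starts 12 nt into the mRNA and opens a frame of 6 codons before its stop codon. This uORF lies at chr6:110874796-110874816, and its start and stop codons are in capitals:

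AMD1 uORF: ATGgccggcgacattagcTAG

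OAZ1 (chr19:2269520-2273490, plus strand) is annotated with 204 nt of CDS, or 68 codons, before the skipped base at position 2271443 and 480 nt after it without the stop codon. In the genomic window chr19:2271429-2271458 the capitals mark the last codon read in the first frame and the stop codon of that frame, whose first base is the skipped one:

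OAZ1 frameshift site: ctcggtggtgcTCCTGAtgcccctcaccca

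The normal termination codons (NTCs) are shown for the genes whose readthrough is described, with the stop codon and the next nucleotide in capitals. The windows lie at chr6:110893602-110893631 for AMD1, chr1:11054850-11054879 on the minus strand for SRM, chrX:21994337-21994366 for SMS and chr19:2273094-2273123 for OAZ1. For AMD1 the first in-frame stop codon of the 3′UTR (3′TC, chr6:110893986-110894015) is shown as well, since its extension is the longest of the 5 genes that have a 3′TC:

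AMD1 NTC: caacagcagagtTGATtaagaaaaatgaag
AMD1 first 3′TC: tttcgtcctcatTAGGtgttggcctcagcc
SRM NTC: aatgatgtgagcTGAGcccaggcgccacca
SMS NTC: aaagctaaacccTGAAgatcagtagcccct
OAZ1 NTC: gaggaggaggagTAGGgccgcctcggggct

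The depth on mRNAs was 6082600 reads for untreated replicate A and 2440204 for untreated replicate B, and 5677910 and 4763858 reads for the G418-treated ones, so untreated replicate B is the least precise. Of 5 genes known to be expressed in HEK293 lines, VIM, NEFM, NEFL and INA were listed in all tables, and 7 of 9 genes that mark blood, liver, endothelium or fibroblasts were listed in none. Of these marker genes, COL1A1 lay between 3.59 and 5.54 RPKM in all libraries. Tables list transcripts with at least about 1 RPKM of CDS density, and the authors discarded transcripts that overlap neighbours. A transcript that is not listed may thus be expressed below that density or have been discarded.

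The first question was how many ribosomes each coding sequence carried. Levels between genes are compared as CDS density, which is per length (RPKM). OAZ1 was the most densely occupied, followed by SRM, SMS, AMD1, AZIN1 and SMOX, and this order was the same in each of the 4 libraries. OAZ1 had a CDS density of 369 and 347 RPKM in untreated and 394 and 360 RPKM in G418-treated replicates A and B. SRM had 107 and 122 RPKM in untreated and 194 and 185 RPKM in treated cells. The range of SRM in treated cells lay wholly above its range in untreated cells, whereas the ranges of OAZ1 overlapped.

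SMS had 53.4 and 50.3 RPKM in untreated replicates and 67.9 and 69.7 RPKM in treated ones. AMD1 had 29.6 and 22.5 RPKM in untreated cells and 49.9 and 48.2 RPKM in treated cells. AZIN1 had 18.1 and 18.98 RPKM in untreated cells and 31.3 and 22.9 RPKM in treated cells. In none of these 3 genes did the conditions overlap, and treated AZIN1 varied most between its replicates. SMOX, at 2.88 and 1.89 RPKM in untreated and 2.70 and 3.67 RPKM in treated cells, overlapped and rested on 12 to 46 counts per library. Neighbours in the order did not overlap within a condition, and the closest were AMD1 and AZIN1 in untreated replicate B.

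**Figure D1:**
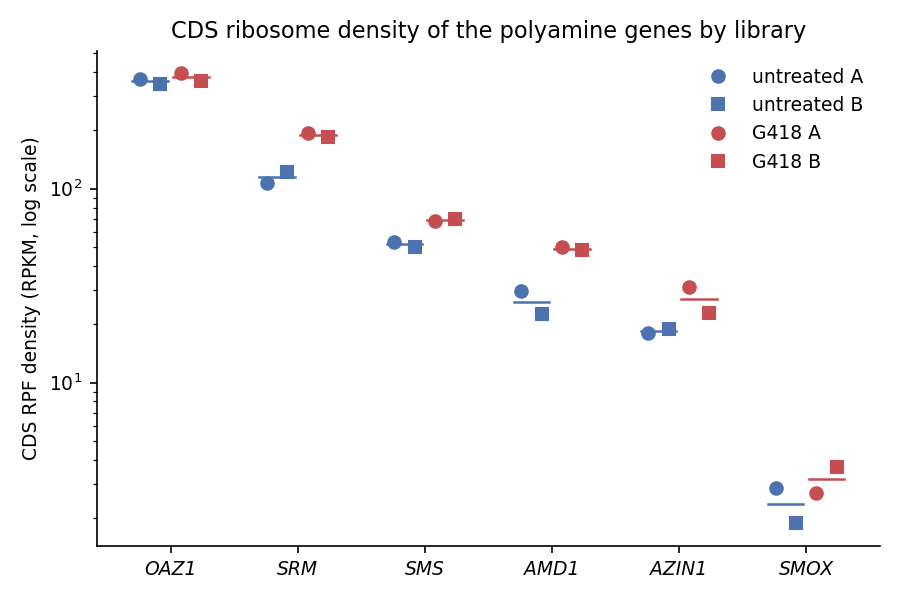
CDS density in RPKM (log axis) of the 6 genes in each library, with circles for replicate A, squares for replicate B and lines for the mean of 2 libraries. The treated points of SRM, SMS, AMD1 and AZIN1 lie above their untreated points, and those of OAZ1 overlap.

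CDS counts of 4 of the 6 genes were higher in G418-treated cells by edgeR's quasi-likelihood test with Benjamini-Hochberg adjustment over 8494 transcripts, and none was lower (edgeR, 0 lower also at an unadjusted p under 0.05 and by DESeq2). Of all transcripts tested, 5.31% were called higher and 3.21% lower. The median log2 fold change was 0.42 over the 6 genes and 0.00 over all transcripts tested. AMD1 rose by a log2 fold change of 0.81 (SE 0.13, adjusted p = 0.000134, edgeR), and 177 transcripts had a larger one. SRM rose by 0.67 on the log2 scale (SE 0.10, adjusted p = 8.3e-05, edgeR). Both enzymes were called under every one of 10 alternatives tried.

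The other calls were closer to the threshold. AZIN1 rose by 0.49 on the log2 scale (SE 0.15, adjusted p = 0.029, edgeR) and SMS by 0.34 (SE 0.11, adjusted p = 0.048, edgeR). AZIN1 was not called with DESeq2 (adjusted p = 0.226), without untreated replicate A (0.0909) or without G418 replicate A or B (0.803 and 0.169), over a range of adjusted p from 6.28e-05 to 0.803 across alternatives. SMS was not called with DESeq2 (adjusted p = 0.235), with DESeq2's size factors (0.0539), with reads recovered from RPM (0.0509) or without either treated replicate (0.465 and 0.785), over a range from 0.000853 to 0.785. Its log2 fold change stayed between 0.26 and 0.44, and that of AZIN1 between 0.30 and 0.64.

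OAZ1 differed by a log2 fold change of 0.00 (SE 0.09, adjusted p = 0.999, edgeR), its sign turned in 5 of 10 alternatives, and its values over them ran from -0.02 to 0.10. SMOX had 0.24 (SE 0.28, adjusted p = 0.661, edgeR). Scaling by library totals in place of TMM shifted the median of all transcripts by 0.106 and turned the split of calls from 451 higher and 273 lower to 887 higher and 120 lower, with 4 of the polyamine genes called higher under both. No mRNA sequencing is analysed here, so more mRNA and more ribosomes per mRNA cannot be told apart with these libraries alone. Nor can fewer cells and less RNA per cell. For AMD1 the paper reports, from its own RNA sequencing, lower RNA levels at its later G418 time point, together with more RPFs. Those RNA levels were not tested here. GENCODE names 4 pseudogenes for AMD1, 3 for SRM and 1 each for OAZ1 and SMS, and because reads mapping to several places were kept at a single position, the counts of these genes are uncertain to that extent.

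Levels can also be set against each other within a library, which needs no scaling between libraries. The CDS density of OAZ1 also counts ribosomes before its frameshift site, so it does not measure full-length antizyme alone. The ratio of OAZ1 to AZIN1 density was 20.4 and 18.3 in untreated and 12.6 and 15.7 in treated replicates. The ratio was thus lower in both treated libraries, 14.1 ± 2.2 against 19.4 ± 1.5 (SD, n = 2 each), with an exact permutation p of 0.333, the smallest that 2 against 2 libraries can give. The density of AMD1 over that of SMS went from 0.555 and 0.447 to 0.736 and 0.691, and that of SRM over SMS from 2.01 and 2.42 to 2.85 and 2.65, both without overlap and both with the same smallest exact p of 0.333. The ratio of AMD1 to SRM overlapped, at 0.276 and 0.185 against 0.258 and 0.260.

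The pathway around these genes was read from further lists: 4 antizyme and acetyltransferase relatives, 6 methionine cycle genes, 5 methylthioadenosine salvage genes, 6 genes of ornithine supply, 4 of hypusine synthesis and 6 of transport. In the CDS comparison 20 of them were tested, of which 1 was called higher and 2 lower, against 5.31% and 3.21% of all transcripts. Their median log2 fold change was -0.07. None of the 5 salvage genes, which recycle the by-product of SRM and SMS, was called by edgeR or DESeq2. The same held for the 4 hypusine genes, and 0 of both lists had an unadjusted p under 0.05 in edgeR. Those 4 genes encode EIF5A and a relative of it, to which a piece of spermidine is attached, and the enzymes of that modification. AHCY, which removes S-adenosylhomocysteine in the methionine cycle, had 308 and 300 RPKM in untreated and 239 and 210 RPKM in treated cells. It fell by 0.51 on the log2 scale (SE 0.08, adjusted p = 0.000176, edgeR). ALDH18A1, which makes the precursor of proline and ornithine from glutamate, had 101 and 94.3 RPKM in untreated and 73.8 and 69.2 RPKM in treated cells and fell by 0.52 on the log2 scale (SE 0.09, adjusted p = 0.000238, edgeR). SLC18B1, a vesicular polyamine transporter, had 30.3 and 22.9 RPKM in untreated and 40.2 and 35.8 RPKM in treated cells. It rose by 0.41 on the log2 scale (SE 0.12, adjusted p = 0.0296, edgeR). Without G418 replicate A or B all 3 lost their call at log2 fold changes of about the same size. AHCY then had -0.55 and -0.47 (adjusted p = 0.0666 and 0.16), ALDH18A1 -0.51 and -0.53 (0.139 and 0.129), and SLC18B1 0.39 and 0.45 (0.569 and 0.406). SLC18B1 lost it also with DESeq2 (adjusted p = 0.195).

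The second question was how ribosomes were divided between the leader and the coding sequence. AZIN1 and AMD1 carried most of their RPFs on the 5′UTR in untreated cells. On AZIN1 the 5′UTR held 72.2% (95% Wilson interval 68.9 to 75.2) and 68.9% (63.7 to 73.6) of mRNA reads without treatment, in replicates A and B in turn. On AMD1 it held 63.4% (60.1 to 66.7) and 61.9% (56.0 to 67.4). Over all transcripts the share was between 4.41% and 5.26% of reads in the 4 libraries. In treated cells the share on AMD1 was 44.4% (41.3 to 47.5) and 42.5% (39.1 to 45.9), outside the untreated intervals. The share on AZIN1 was 60.2% (56.9 to 63.3) and 64.1% (60.4 to 67.7), and the interval of treated replicate B met that of untreated replicate B. These intervals cover counting error only.

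SMOX held 31.1% and 33.3% of its reads on the 5′UTR in untreated and 40.6% and 24.6% in treated cells, from 6 to 26 such reads per library. SMS held 6.40% and 7.89% in untreated and 6.20% and 6.47% in treated cells. OAZ1, which has no upstream AUG, held 4.66% and 3.46% in untreated and 3.28% and 3.38% in treated cells. SRM, also without one, held between 0.202% and 0.472%, from 1 to 5 reads per library. Of the genes with an upstream AUG, AMD1 has 1 and AZIN1 has 5 that all end before the CDS, and SMS has 1 whose frame runs into the CDS. SMOX has none, and its share rests on few reads that differed between the treated replicates.

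**Figure D2:**
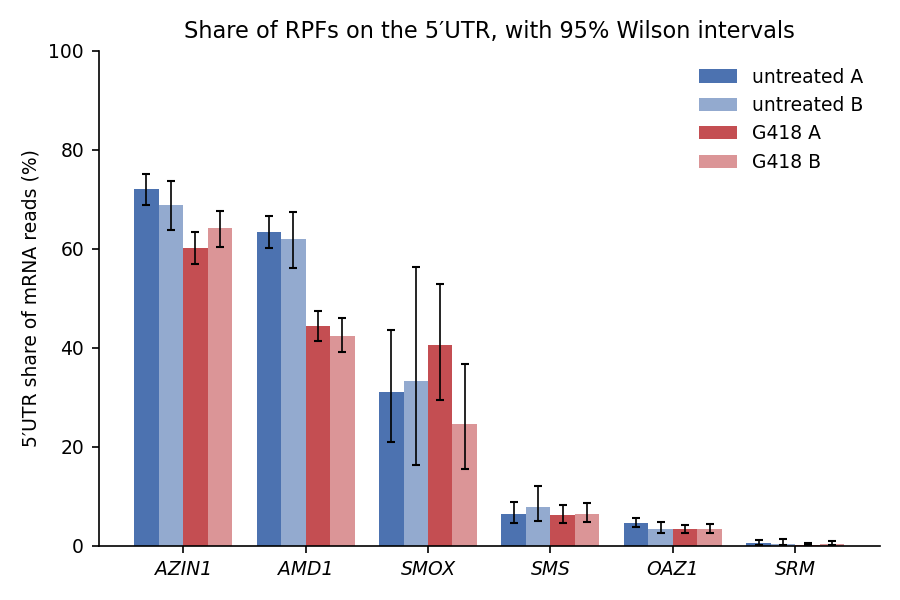
Percent of the RPFs of each mRNA that lie on its 5′UTR, for each library, with 95% Wilson intervals as error bars. Both treated bars of AMD1, at 44.4% and 42.5%, stand below both untreated bars, at 63.4% and 61.9%.

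Per length, the 5′UTR of AMD1 was occupied 6.21 and 6.24 times as densely as its CDS in untreated cells and 3.41 and 2.91 times as densely in treated cells. Among 6222 transcripts with enough CDS reads in both conditions, 6 had a higher mean ratio in untreated cells and 47 in treated cells, where the medians over all were 0.286 and 0.240. The ratio of AZIN1 was 4.54 and 4.06 in untreated and 2.70 and 3.13 in treated cells, with 24 and 59 transcripts above it. SMOX had too few CDS reads to be ranked, with 12 to 46 per library. Its ratio was as high, at 4.35 and 4.81 in untreated and 6.76 and 3.14 in treated cells. These ranks describe the level of the ratio and are no test of it. The 5′UTR density itself overlapped between conditions in AMD1 and AZIN1. It was 184 and 140 RPKM in untreated and 170 and 140 RPKM in treated cells for AMD1, and 82.1 and 77.1 against 84.4 and 71.7 RPKM for AZIN1.

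**Figure D3:**
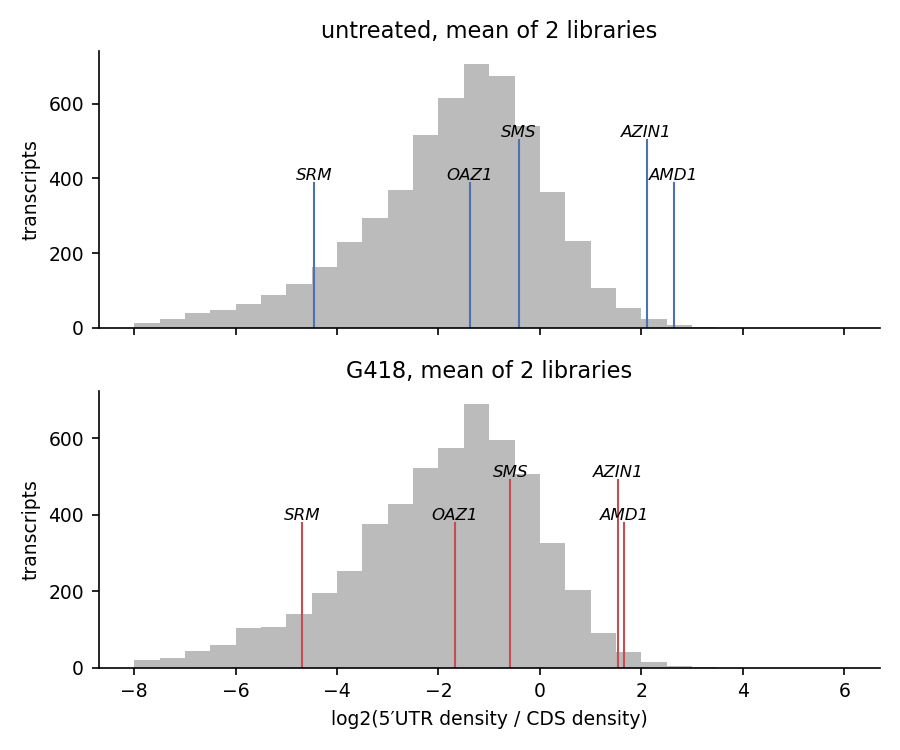
Number of transcripts by the log2 ratio of 5′UTR to CDS density, mean of 2 libraries, in untreated (top) and G418-treated cells (bottom), with lines at the polyamine genes that had enough CDS reads. AMD1 and AZIN1 lie in the right tail in both conditions and nearer to the rest in treated cells; 898 untreated and 866 treated transcripts with a ratio of 0, and a few outside the axis, are not drawn.

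Reads on the 5′UTR per CDS read were tested for 4 of the 6 genes, those with at least 20 such reads, and SRM and SMOX did not reach the minimum of 5′UTR or CDS reads. AMD1 and AZIN1 were lower in treated cells, against a background of 1.70% of 3656 transcripts called lower and 0.0274% called higher. The log2 fold change of this ratio was -0.97 for AMD1 (SE 0.13, adjusted p = 0.00184, edgeR) and -0.57 for AZIN1 (SE 0.12, adjusted p = 0.0293, edgeR), beside a median of -0.16 over all transcripts tested. The uORF of AMD1 shown above lies in this region, but the tables sum reads over the whole 5′UTR, so reads on the uORF itself cannot be separated. The paper reports that the ribosome peak at the end of this uORF was lower with G418. An interaction model over 5′UTR and CDS reads gave nearly the same sizes, -0.98 and -0.58, without a call for either (adjusted p = 0.109 and 0.286). Across alternatives adjusted p ran from 1.12e-17 to 0.109 for AMD1, which kept its call in 8 of 9, and from 8.2e-09 to 0.677 for AZIN1. AZIN1 was also lost with DESeq2 (0.141) and without G418 replicate A or B (0.677 and 0.11).

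OAZ1 had a log2 fold change of -0.33 in 5′UTR reads per CDS read (SE 0.26, adjusted p = 0.622, edgeR) and SMS one of -0.13 (SE 0.32, adjusted p = 0.899, edgeR). Of the other pathway genes 17 were tested and none was called by edgeR or DESeq2, while 2 were lower and 0 higher at an unadjusted p under 0.05 in edgeR. As the CDS reads are the denominator here and rose in AMD1 and AZIN1, this comparison and that of CDS reads share their data. On OAZ1 reads before and after the frameshift site are summed in the deposited CDS counts, so the share of ribosomes that shift frame was not measured.

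The third question was how many ribosomes passed the NTC. The ribosome readthrough score (RRTS) is the density on the stretch from the NTC to the first 3′TC in frame, given here as a percent of CDS density. As the length of this stretch includes the 3′TC codon, ribosomes at that codon are taken to count in it. AMD1 stood high before treatment: its RRTS was 30.02% and 51.4% in untreated replicates A and B, from 30 and 17 reads, and 93.5% and 68.8% in treated ones, from 148 and 96 reads. Among 440 transcripts with the same 4 nt stop codon (UGAU, shown above) 19 and 8 had a higher RRTS in the untreated libraries and 30 and 58 in the treated ones. Their pooled RRTS was 2.86% and 2.46% in untreated and 28.2% and 26.4% in treated cells.

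The first 3′TC of AMD1, a UAG, ends 384 nt after the NTC, and 49 in-frame stop codons follow the NTC in all. Density after the first one was 2.43% and 2.67% of CDS density in untreated cells, from 11 and 4 reads, and 1.25% and 0.474% in treated cells, from 9 and 3 reads. Of the 3′UTR reads of AMD1, 30 of 41 and 17 of 21 lay before or at this 3′TC without treatment, and 148 of 157 and 96 of 99 in treated cells (replicates A and B in turn). The paper reports a peak of stalled ribosomes at this 3′TC, which was higher with G418. Reads of such a peak would add to the RRTS of AMD1. Whether the reads gather at one position cannot be read from sums over the region.

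The log2 fold change of readthrough per CDS read in AMD1 was 1.18 (SE 0.23, adjusted p = 1.5e-06, edgeR). Of the 5 genes with at least 10 readthrough reads 2 were called higher, AMD1 and SRM, while 82.6% of all 2827 transcripts tested were called higher and 0.0707% lower. The median over all was 3.18, and 2577 transcripts had a larger log2 fold change than AMD1. Transcripts could enter this test through their treated reads alone, whereas AMD1 met the minimum on its untreated reads (30 and 17). Its rank and the share called are therefore descriptions only. Without untreated replicate A, whose RRTS was the lower of the pair, the value of AMD1 was 0.67 and no longer called (adjusted p = 0.077, over a range from 1.53e-08 to 0.077 across alternatives).

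SRM had an RRTS of 1.58% and 1.60% in untreated cells, from 4 and 2 reads, and 14.5% and 12.8% in treated cells, from 62 and 48 reads. The conditions were far apart, and the treated values lay near the 17.7% and 17.4% pooled over 1236 transcripts with the same UGAG stop codon. Its log2 fold change was 3.08 (SE 0.46, adjusted p = 2.5e-10, edgeR), near the median of all transcripts, and lay between 2.98 and 3.15 over 9 alternatives. SRM reached the minimum of 10 readthrough reads only through its treated reads, so its call is given as a description only. The annotated 3′UTR of SRM (276 nt) holds no in-frame stop codon, so its whole 3′UTR counts as the readthrough region.

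The remaining genes had few reads past the NTC. SMS (UGAA stop codon) had 1 and 0 reads in untreated and 6 and 3 reads in treated cells over a 30 nt counted region, which is an RRTS of 6.99% and 0% against 35.1% and 18.7%. The 0 allows an RRTS of up to 51.1% at 3 reads, so no fall or rise could be fixed for that pair. Pooled over replicates, the ratio of treated to untreated readthrough in SMS was 5.48 with an exact 95% counting interval from 0.759 to 240, and the test gave a log2 fold change of 2.25 (SE 1.30, adjusted p = 0.0936, edgeR).

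OAZ1 had the most CDS reads of the 6 genes and few of its 3′UTR reads lay before or at its first 3′TC. It held 0 and 2 readthrough reads in untreated and 3 and 5 in treated cells, an RRTS of 0%, 2.74%, 1.68% and 3.36%, where the 0 allows up to 1.69%. After that 3′TC its density was 1.51% and 1.61% of CDS density in untreated cells, from 16 and 7 reads, and 1.98% and 2.14% in treated cells, from 21 and 19 reads. Density on OAZ1 was thus of a like low level on both sides of the 3′TC, unlike that on AMD1, although the difference between the genes was not tested. In the treated libraries 318 and 309 of 399 transcripts with the same UAGG stop codon had a higher RRTS, and their pooled RRTS was 11.5% and 11.0%. The CDS density in the RRTS of OAZ1 also counts ribosomes before its frameshift site, including those that end there. Its RRTS is therefore not directly comparable with that of transcripts without a frameshift. The log2 fold change of OAZ1 was 1.52 (SE 1.12, adjusted p = 0.19, edgeR), with a pooled ratio of 3.07 and a counting interval from 0.612 to 29.6. It moved to -0.16 without untreated replicate A (adjusted p = 0.902). Without untreated replicate B the untreated arm is 1 library with 0 reads in the region, so the fold fitted there has no interpretable size.

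AZIN1 (UAAA stop codon) had 2 and 2 reads in untreated and 6 and 3 in treated cells, an RRTS of 16.5% and 36.1% against 30.5% and 22.8%, which overlap. Its log2 fold change was 0.26 (SE 0.95, adjusted p = 0.792, edgeR), and the pooled ratio of 1.21 had a counting interval from 0.337 to 5.36. The sign turned without untreated replicate A and over the whole 3′UTR (-0.38 and -0.28). SMOX had 1 read in the region, in treated replicate A, and was not tested. Of the other pathway genes 10 of 11 tested were called higher in readthrough, beside 82.6% of all transcripts. Since a gene could enter this test through its treated reads alone, that count is a description only.

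**Figure D4:**
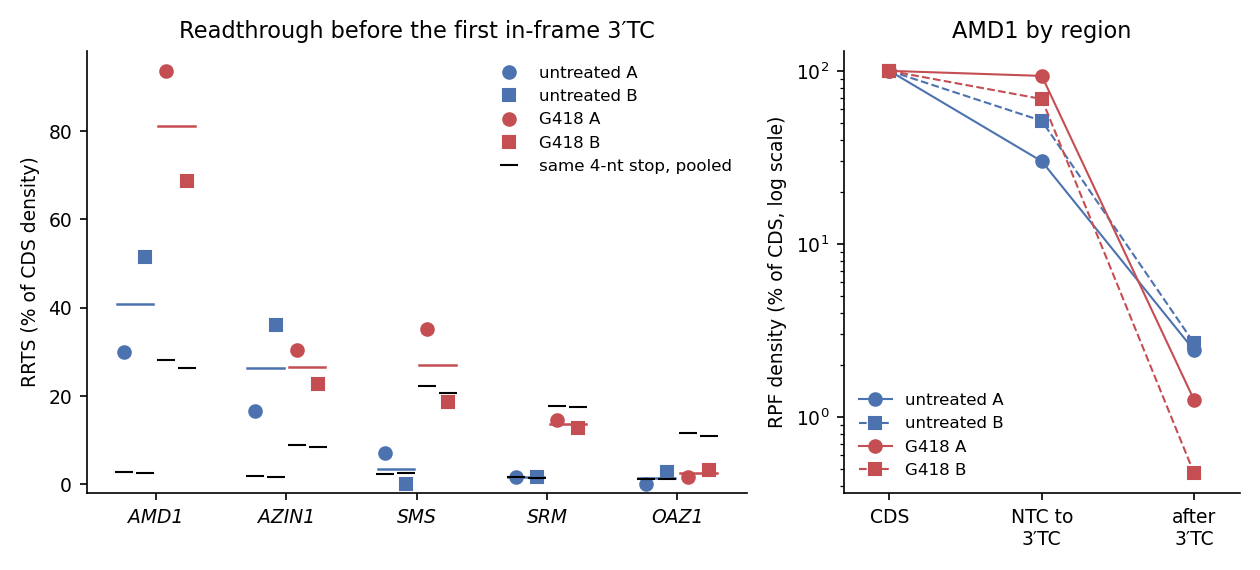
Left, RRTS in percent of CDS density for 5 genes in each library, with coloured lines at the mean of 2 libraries and black dashes at the pooled RRTS of transcripts with the same 4 nt stop codon; AMD1 lies above those dashes in all 4 libraries and OAZ1 below them in both treated ones. Right, density of AMD1 in 3 regions as a percent of its CDS density (log axis), which falls to between 0.474% and 2.67% after the first 3′TC. The RRTS of OAZ1 is divided by a CDS density that includes reads before its frameshift site.

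**Figure D5:**
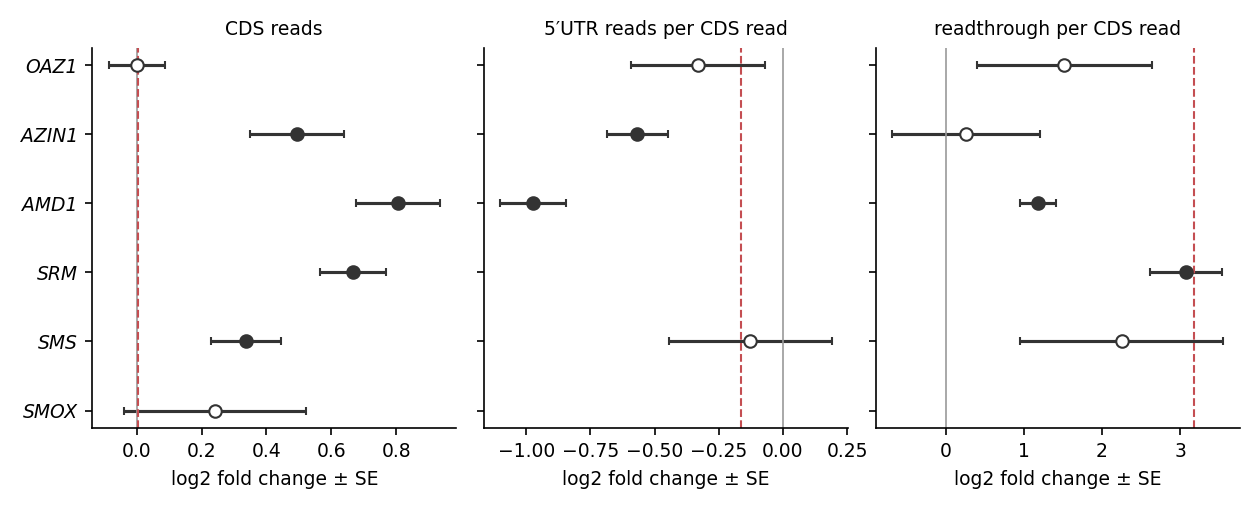
Log2 fold changes (treated over untreated) with their standard errors in the 3 comparisons, filled where the adjusted p-value was under 0.05, with grey lines at 0 and red dashed lines at the median of all transcripts tested. SRM lies near the median in readthrough, AMD1 below it, and both above it in CDS reads.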

How the data were processed

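Ribosome profiling libraries of untreated and G418-treated HEK293T cells (2 replicates each) were analysed from the tables of the authors. Per the labels and methods, the authors used CASAVA 1.8 and STAR with hg38, collapsed reads by molecular identifier, removed noncoding RNA, kept the primary position of reads with several, and assigned RPFs of 28 to 35 nt to a single transcript per gene. Transcripts overlapping neighbours were discarded. The deposited counts are RPFs per region. The deposited RPM values scale them to the library, and the deposited RPKM densities divide RPM by a region length without 18 nt at the CDS start, 15 nt at its end and 6 nt after the stop codon. RRTS and the occupancy of the whole 3′UTR were deposited as a ratio to CDS density. The deposited 5′UTR density was treated as a score and not used, since a few values are negative.

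Whole reads were recovered from RPM (100% of values within 0.02 of a whole number), because the deposited counts equal the reads or 1 less. CDS counts as deposited were tested with edgeR 4.0.16 (quasi-likelihood F test, TMM, filterByExpr) in R 4.3.3. On the recovered reads, the 5′UTR and readthrough tests used log(CDS reads + 0.5) as offset, with minimums of 20 and 10 reads over the libraries. A minimum of 128 CDS reads (5′UTR) or mRNA reads (readthrough) per condition also applied. The threshold was an adjusted p of 0.05 over all transcripts tested. Levels are means ± SD over 2 libraries. The p-values of edgeR and DESeq2 set the difference between conditions against a spread between replicates, estimated with information from all transcripts tested. Alternatives were DESeq2 1.42.0, other scalings, filters and read sources, an interaction model, the whole 3′UTR, the replicate letter as a block and each replicate left out. Simulated data gave every transcript the same assumed spread between libraries, not one estimated from these data, so the rates are only a guide. On them the CDS test called 79.1% of 2-fold rises and the 5′UTR test 29.9% of 0.5-fold changes. The readthrough test called 14.9% of 2-fold and 71.2% of 4-fold rises. A gene that was not called may therefore still have changed. The genes and pathway lists were chosen with earlier results of these data known. All listed genes in the tables are named, and of the other pathway genes those called in the CDS comparison, at most 3 per list. Intervals and the 3-read minimum cover counting error only. Sequences and coordinates were read by script from GENCODE version 44 and hg38. Python 3.11.15, pandas and scipy were used. The values of another marker gene are not reported here.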

Additional observations from a re-analysis of the deposited data

How the results depend on the processing

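Of 171 log2 fold changes of named genes under alternatives, 139 kept their direction and their side of the threshold, 22 kept the direction but lost the call, 1 gained it and 9 turned. The 9 turned values were in OAZ1, SMOX and AZIN1, none of them called. In CDS reads OAZ1 had -0.0058 with DESeq2, -0.0056 with DESeq2's size factors in edgeR and -0.0047 with recovered reads, and leaving out a replicate gave -0.017 to 0.014 in OAZ1 and -0.050 to 0.59 in SMOX. In readthrough AZIN1 had -0.28 over the whole 3′UTR and -0.38 to 0.70 without single replicates, and OAZ1 had -0.16 to 5.08 without single replicates, the higher end against 1 untreated library with 0 reads. A replicate left out leaves its condition with 1 library, which is assumed to vary like the other condition. The number of transcripts called depended more on the setting. In CDS reads DESeq2 called 113 higher and 140 lower with 2 of the polyamine genes higher, library totals 887 and 120, and leaving out a replicate gave 58 to 999 higher and 15 to 1083 lower with 2 to 4 polyamine genes higher. In 5′UTR reads per CDS read DESeq2 called 0 higher and 41 lower with 1 polyamine gene (18 and 192 transcripts at an unadjusted p under 0.05), the interaction model 0 higher and 6 lower with 0 polyamine genes (94 and 385 unadjusted), and the deposited counts 0 higher (76 unadjusted). Leaving out a replicate gave 0 to 51 higher and 11 to 357 lower, with 1 to 2 polyamine genes lower. In readthrough DESeq2 called 1408 higher and 1 lower, the whole 3′UTR 10 lower, and leaving out a replicate gave 1504 to 2266 higher and 1 to 2 lower with 1 to 3 polyamine genes higher. The cause of these differences was not tested. Both conditions share the letters A and B, and deviations of same-lettered libraries correlated at 0.14 over 8494 transcripts, but 2 pairs do not show a pairing. With the replicate letter as a block, 618 transcripts were called higher and 452 lower in CDS reads, 5 higher and 84 lower in 5′UTR reads per CDS read and 1852 higher and 2 lower in readthrough, and the polyamine genes called were as many as without it. Depth limits the readthrough of SMS, OAZ1, AZIN1 and SMOX, which rest on at most 6 reads per library.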
